A study of Mus musculus with 21 samples.

Results

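The solute carriers are a large set of gene families, named Slc and a family number, whose proteins move small molecules and ions across membranes. They were followed here in the lungs of 3 inbred mouse strains given bleomycin, a DNA-breaking cancer drug whose known side effect is lung injury and scarring. A probe set, a group of probes for 1 transcript on the array, was taken as a member when its annotation gave exactly 1 gene symbol that starts with Slc and a digit, Slc4a1 left out, and when its mean log2 level over all 21 arrays was above 7. Of 416 such probe sets for 261 genes, 176 probe sets for 120 genes passed the level rule, out of 22626 probe sets on the array. Genes with a probe set of 1 symbol numbered 12393 in all. The level is log2 of the quantile-normalised intensity plus 16. Just inside the rule lay Slc35a2 at 7.049, Slc39a14 at 7.064 and 1 probe set of Slc25a5 at 7.067. Just outside it lay Slc22a18 at 6.984, Slc25a30 at 6.996 and Slc7a4 at 6.997. All 176 members were among the 15084 probe sets tested. Of the members, 115 were above the threshold on every array, and 11 were at or below it in the mean of the 6 control arrays, so that treated arrays brought them in. These 11 belong to Slc26a4 (control mean 6.51), Slc19a2 (6.65), Slc7a5 (6.94), Slc20a2 (6.90), Slc39a14 (2 probe sets, 6.94 and 6.93), Slc25a5 (1 of 7, 6.91), Slc27a1, Slc25a44, Slc35b4 and Slc39a3. Where 1 of them is higher in treated lung, the level rule favoured that direction, and its rise is given as a description. The level rule also left out known carriers with low signal, among them Slc7a11 (5.56), the cystine importer, Slc6a4 (5.42), the serotonin transporter, Slc37a2 (6.38) and Slc16a3 (6.96).

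RNA came from the whole right lung, pooled over several mice for each array, and treated mice had received bleomycin from an osmotic minipump. Each strain had 2 pools of control lung. In C3H/HeJ there were 2 pools at 3 weeks and 2 at 6 weeks, and in A/J 4 at 3 weeks and 2 at 6 weeks. C57BL/6 had 2 pools at 3 weeks, 1 female pool at 6 weeks and 2 pools from mice labelled moribund, whose time of sampling the sources used here do not give. Apart from the A/J group at 3 weeks and the C57BL/6 group at 6 weeks, each group held 1 male and 1 female pool. The dose was 100 mg/kg in treated males and 125 mg/kg in treated females. Only for A/J at 3 weeks were there pools at lower doses, 1 of males at 80 mg/kg and 1 of females at 100 mg/kg. The sources used here give neither the ages of the mice nor what the controls received. Different pools are the replicates, but no 2 arrays shared strain, stage, sex and dose. The p-values thus measure the spread between pools that is left after 1 sex term common to all groups. That spread also holds any sex difference that varies between groups and, in A/J at 3 weeks, any effect of dose. In the other treated groups dose went with sex, so that the effects of these 2 cannot be told apart.

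Solute carriers sit in the plasma membrane, in lysosomes and in the inner membrane of mitochondria. In the lung they take up the phosphate set free in surfactant turnover, set the salt and bicarbonate of the airway liquid, feed amino acids and sugars to cells, and handle iron, zinc and copper in macrophages. Exchangers and cotransporters use the gradient of 1 solute to move another, facilitators let a solute run down its own gradient, and the Slc25 family works inside mitochondria. The symbols Slc9a3r1 and Slc9a3r2 met the rule by their letters only: they encode scaffold proteins that bind a sodium-proton exchanger.

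Deposited array medians ran from 58.4 to 111, and log2 signals of any pair of arrays correlated at 0.879 to 0.978 over the probe sets tested. For Gapdh, the signal of the 3′ control probe set over that of the 5′ one lay between 0.770 and 2.08, with the top value on the female 6 week array of C3H/HeJ. Of the arrays labelled male, the A/J 3 week array at 80 mg/kg (8.24) and the C3H/HeJ 3 week array (8.73) had more Xist RNA than the others (6.63 to 7.46), while female arrays lay between 9.29 and 11.91. In C57BL/6 at 3 weeks 12 of 15 macrophage markers rose, and their summed intensity went from 9729 to 9979 in controls to 19155 to 20206. Endothelial markers fell in 9 of 10 (10886 to 11307 in controls, 5661 to 7204 at 3 weeks), markers of heart and skeletal muscle in 8 of 11 tested (5819 to 5849 and 1991 to 2607) and type 2 epithelial markers in 3 of 9 (30475 to 31552 and 25108 to 25370). No marker value was 0. In bulk tissue fewer cells of a type and less RNA per cell cannot be told apart, and the part of these shifts in the values that follow was not tested.

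In C57BL/6 lung at 3 weeks the largest falls called were those of Slc7a10, Slc4a5 and Slc38a5, and the largest rises called those of Slc15a3, Slc19a2 and Slc7a5. Of these genes Slc7a10, Slc38a5 and Slc7a5 encode amino acid carriers, and the level rule favoured the rise of Slc7a5. Of the 176 members 25 passed, 14.2% of them, against 10.7% of all probe sets tested. Of these 13 were higher, against 5.66% of all probe sets called higher, and 12 were lower, against 5.04% called lower. They stood for 13 genes that rose and 10 that fell. The median change was 0.06 over the members and −0.01 over all probe sets. A call is a limma adjusted p under 0.05, with p-values adjusted over the 15084 probe sets. Of the 25 calls 2, those of Slc19a2 and Slc7a5, belong to probe sets brought in by treated arrays, and among the other 165 members 23 passed, 13.9%. With each of the 4 arrays left out in turn 6 calls held every time, those of Slc7a10, Slc4a5, Slc15a3, Slc19a2, Slc11a1 and 1 probe set of Slc9a3r2. Each of the other calls was lost at least once. Calls lost whichever of the 4 arrays was left out were those of Slc1a5, Slc7a5, Slc8b1, Slc16a11, Slc22a23, Slc25a5, Slc25a23, Slc25a39, Slc29a3 and Slc44a2. The count fell to 8 without the male 3 week array, to 9 without the male control array and to 13 without the female control array. With values as deposited, not scaled between arrays, it was 6, with 1 higher and 5 lower, and with arrays scaled to the same median it was 23, with 15 higher and 8 lower.

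Of the 120 member genes 92 had a promoter in a table of RefSeq starts on build GRCm38.p6, from 250 bases before the start to 50 after it. Those of Slc7a10 and Slc4a5, whose falls were the largest, and of Slc11a1, called in C57BL/6 and in C3H/HeJ, are shown 5′ to 3′ on the plus strand of the genome: Slc7a10 at chr7:35186135-35186434, Slc4a5 at chr6:83237125-83237424 and Slc11a1 at chr1:74374953-74375252. Capitals mark matches to the motifs searched.
Slc7a10: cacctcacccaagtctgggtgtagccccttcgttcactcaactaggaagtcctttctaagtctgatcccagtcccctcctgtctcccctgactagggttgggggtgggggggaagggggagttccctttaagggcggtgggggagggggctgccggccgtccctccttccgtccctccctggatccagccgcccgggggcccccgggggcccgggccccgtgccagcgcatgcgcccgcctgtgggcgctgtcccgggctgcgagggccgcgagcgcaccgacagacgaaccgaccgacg
Slc4a5: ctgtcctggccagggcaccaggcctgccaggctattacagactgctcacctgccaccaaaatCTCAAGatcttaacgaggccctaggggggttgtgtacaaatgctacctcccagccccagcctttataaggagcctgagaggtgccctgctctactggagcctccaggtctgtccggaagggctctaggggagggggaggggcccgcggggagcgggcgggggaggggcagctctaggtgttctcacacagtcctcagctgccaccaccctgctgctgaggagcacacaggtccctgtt
Slc11a1: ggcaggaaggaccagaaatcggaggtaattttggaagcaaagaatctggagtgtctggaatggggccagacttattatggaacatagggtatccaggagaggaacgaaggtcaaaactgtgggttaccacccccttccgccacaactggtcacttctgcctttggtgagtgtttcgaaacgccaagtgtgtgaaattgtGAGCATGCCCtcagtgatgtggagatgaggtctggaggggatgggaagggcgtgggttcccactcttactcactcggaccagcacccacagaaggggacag
The capitals in Slc4a5, bases 63 to 68, are the NKX2-1 half-site CTCAAG, and those in Slc11a1, bases 200 to 209, a p53 half-site. The window of Slc7a10 held none of the 6 motifs. On either strand, CTCAAG was in 16.3% of the 92 member promoters and in 16.2% of all 27025 promoters. The p53 half-site was in 7.61% and 8.37%, the PU.1 site GAGGAAGT in 3.26% and 3.28%, and a STAT site in 6.52% and 6.99%. The E-box CACGTG was in 11 of the 92 member promoters and in 7.24% of all promoters, and the AP-1 site TGANTCA in 3.26% and 7.93%. A match is a string of letters in this window and was not tested as a binding site.

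Among the amino acid carriers 3 of 24 probe sets fell and 1 rose. Over all probe sets tested 5.04% were called lower and 5.66% higher, the shares to set beside each class count here and below. The classes are described by counts and were not tested as sets. Slc7a10 encodes Asc-1, an exchanger of small neutral amino acids such as glycine and serine that is also known as a surface protein of white fat cells. C57BL/6 control arrays read 8.56 and 8.88 for it, and the 3 week arrays 6.72 and 7.17. The 6 week array read 7.23, and the moribund arrays 6.76 and 6.84, so that every treated C57BL/6 array lay below every other array of the study. The fall at 3 weeks was 3.43-fold (log2 change −1.78, SE 0.18, adjusted p = 1.3e-05), the largest among the members. Its sign and call were the same in all 17 alternative settings, between −1.99 and −1.45. The summed intensity of the 5 adipocyte markers on the array also went down, from 861 to 1364 in controls to 347 to 512 at 3 weeks in C57BL/6. In A/J the same sum went from 1040 to 1304 down to 449 to 822, while Slc7a10 read 8.35 to 8.73 at 3 weeks beside 8.61 and 8.62 in controls.

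Slc38a5 encodes SNAT5, which carries glutamine, asparagine and histidine in exchange for protons. It read 8.17 and 8.13 in C57BL/6 controls and 6.88 and 7.40 at 3 weeks, with no overlap (log2 change −1.01, SE 0.22, adjusted p = 0.00596). The call was lost without the male 3 week array (−0.78, adjusted p = 0.133) and without the male control array (−0.93, adjusted p = 0.0715). Slc1a5, the neutral amino acid exchanger ASCT2, read 9.20 and 8.92 in controls and 8.31 and 8.46 at 3 weeks (−0.68, SE 0.20, adjusted p = 0.0383). The Slc1a5 call was lost in 8 of 17 alternative settings, with values from −0.84 to −0.52. Slc38a1 and Slc38a2, of the same family as Slc38a5, were at 0.01 and −0.08 in C57BL/6 at 3 weeks. The amino acid carrier called higher was Slc7a5, the light chain of the large neutral amino acid transporter LAT1. It read 6.33 and 6.94 in controls and 7.94 and 7.60 at 3 weeks (1.13, SE 0.34, adjusted p = 0.0428). Its call was lost in 8 of 17 alternative settings, among them leaving out any 1 of these 4 arrays. Slc3a2, the heavy chain that pairs with it, did not pass (0.18, SE 0.14, adjusted p = 0.486).

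**Figure D1:**
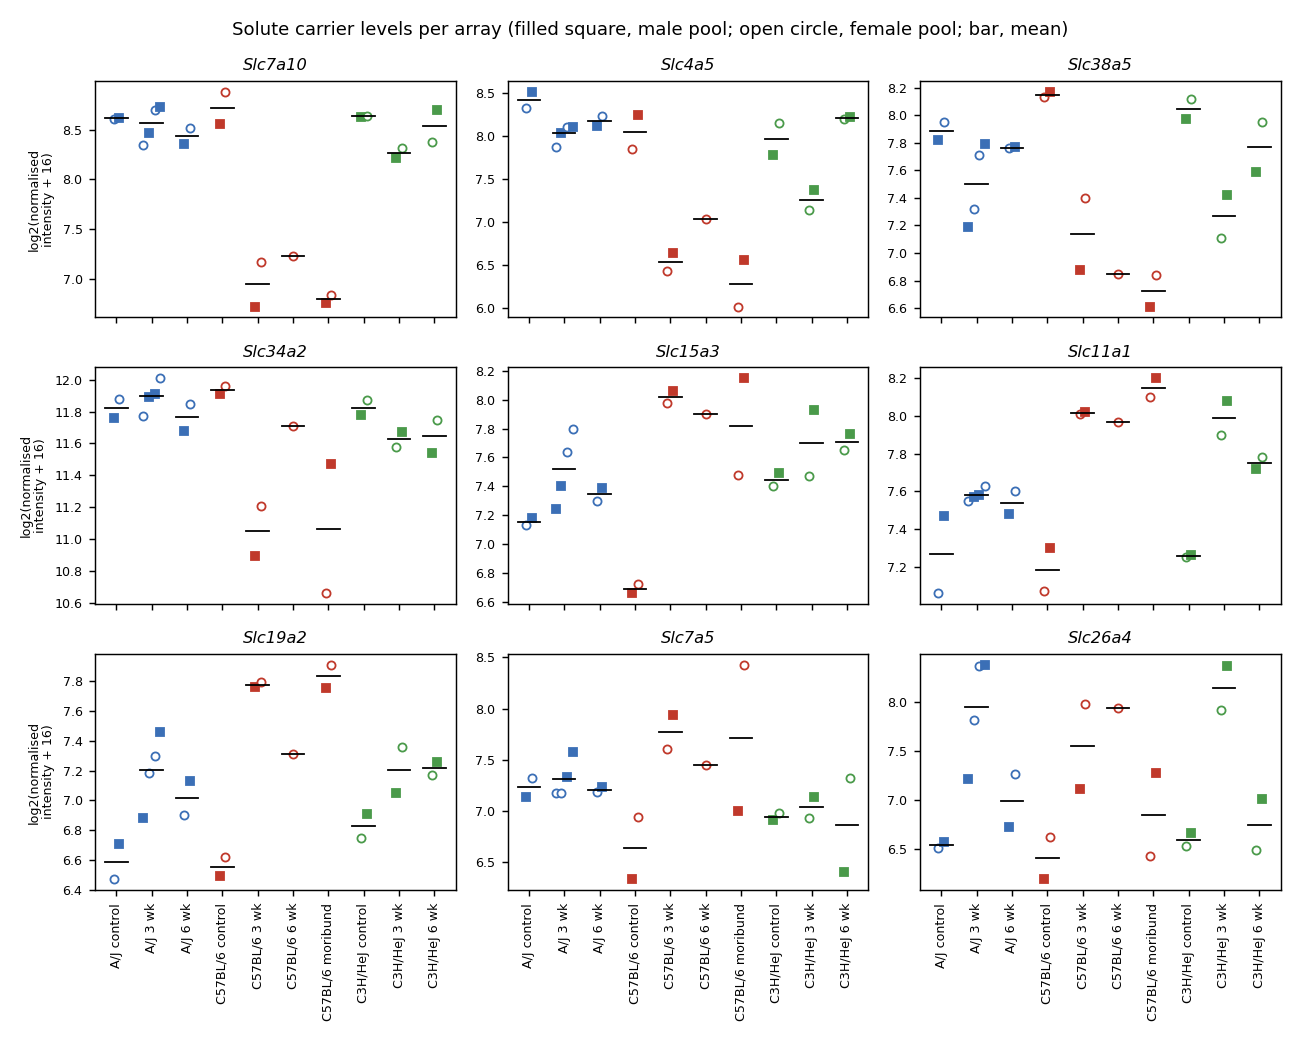
Levels of 9 solute carrier genes on each of the 21 arrays, as log2 of the normalised intensity plus 16, by strain and stage. Filled squares are male pools, open circles female pools and bars group means; scales differ between panels. Slc7a10 lies at 6.72 to 7.23 on the 5 treated C57BL/6 arrays and at 8.21 or more on the other arrays, while Slc26a4 is raised at 3 weeks in each strain.

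Of the 12 probe sets for carriers of bicarbonate, chloride, sulfate and other anions, 1 fell in C57BL/6 at 3 weeks. It belongs to Slc4a5, the electrogenic sodium bicarbonate cotransporter NBCe2. Its control arrays read 8.25 and 7.85, its 3 week arrays 6.64 and 6.43. The fall was 2.86-fold (log2 change −1.52, SE 0.19, adjusted p = 7.9e-05), and the call held in all 17 alternative settings, between −1.73 and −1.15. Both 3 week arrays lay more than 1 log2 unit below both controls. Slc26a4, the anion exchanger pendrin of the airway surface, was higher by 1.13 (SE 0.38) and did not pass (adjusted p = 0.0723).

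Slc34a2 encodes the sodium phosphate cotransporter NaPi-IIb of the type 2 cell's apical membrane, which clears phosphate from the alveolar fluid. Of the 4 phosphate carrier probe sets it was the 1 called. Control arrays read 11.91 and 11.96, and 3 week arrays 10.89 and 11.21, with no overlap. The log2 change was −0.89 (SE 0.18, adjusted p = 0.00474). Without the male 3 week array it was −0.71 and did not pass (adjusted p = 0.104). Of the 9 type 2 cell markers 3 passed, all lower. The list ran from Etv5 at −1.38 to Napsa at 0.19, with Abca3 at −0.61, Sftpd at −0.20 and Sftpc at −0.05. The 2 probe sets of Slc20a2, a phosphate carrier of most cells, were at 1.02 and 1.37 and did not pass (adjusted p = 0.134 and 0.0865).

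Further falls were those of carriers of nucleosides, organic ions and monocarboxylates. Slc29a1, the equilibrative nucleoside transporter ENT1, fell by 0.74 (SE 0.22, adjusted p = 0.0365), and Slc22a23, an organic ion transporter family member with no settled substrate, fell by 0.45 (SE 0.14, adjusted p = 0.0458). Slc16a11, of the monocarboxylate transporter family, read 8.78 and 8.48 in controls and 8.07 and 7.63 at 3 weeks (−0.78, SE 0.20, adjusted p = 0.0199). The scaffold gene Slc9a3r2 has 6 member probe sets, all lower, and 3 of them passed, at −0.93, −0.70 and −0.65. The gene's brightest probe set did not pass (−0.55, adjusted p = 0.0712). The 3 probe sets of its relative Slc9a3r1 went the other way, at 0.59, 0.48 and 0.26, and only the first passed (adjusted p = 0.0458).

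Of the 10 probe sets for carriers of vitamins, peptides and urea 2 were called, both higher. Slc15a3 encodes PHT2, which moves histidine and small peptides out of the lysosome and is known from immune cells. It read 6.66 and 6.72 in C57BL/6 controls and 8.06 and 7.98 at 3 weeks. The rise was 2.52-fold (log2 change 1.33, SE 0.22, adjusted p = 8.1e-04) and was called in all 17 alternative settings. Slc19a2, the thiamine transporter THTR1, entered the set through treated arrays, with a control mean of 6.65. It read 6.49 and 6.62 in controls and 7.76 and 7.79 at 3 weeks. That rise was 2.33-fold (1.22, SE 0.19, adjusted p = 6.7e-04). For both genes the 3 week arrays lay above both controls by more than 1 log2 unit. With deposited scaling Slc19a2 was at 1.06 and did not pass (adjusted p = 0.058).

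Metal ion carriers gave 4 rises and no fall by limma among 31 probe sets, with a median change of 0.13. Of all probe sets 5.66% were called higher and 5.04% lower, and whether this class differs from them was not tested. Slc11a1, also called Nramp1, pumps divalent metals out of the phagosome of macrophages and neutrophils, and C57BL/6 mice are known to carry a nonfunctional form of the protein. It read 7.30 and 7.07 in controls and 8.02 and 8.01 at 3 weeks (0.83, SE 0.15, adjusted p = 0.00185). Slc39a1, the zinc importer ZIP1, rose by 0.76 (SE 0.17, adjusted p = 0.00728). Slc40a1, the iron exporter ferroportin, rose by 0.63 (SE 0.15, adjusted p = 0.0145) on 1 probe set, while its other probe set was at 0.26 and did not pass (adjusted p = 0.37). Slc31a2, a copper transporter, rose by 0.83 on its dimmer probe set (adjusted p = 0.0277), and its brighter one was at 0.47 (adjusted p = 0.274). With values as deposited none of Slc11a1, Slc39a1 and Slc40a1 passed, at 0.66, 0.64 and 0.45. The zinc and iron importer Slc39a14 was at 1.41 on its brighter probe set and did not pass (SE 0.45, adjusted p = 0.0552). Slc39a8, a zinc and manganese importer, was at −0.39 and did not pass (adjusted p = 0.176).

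Of the 40 probe sets of mitochondrial carriers, 2 rose and 1 fell, with a median change of 0.02. Slc25a23, a calcium-regulated carrier of ATP-magnesium and phosphate, fell by 0.79 (SE 0.23, adjusted p = 0.0326). Of the 7 probe sets of Slc25a5, an ADP/ATP carrier, 1 rose by 0.49 (SE 0.13, adjusted p = 0.0208). Of the 3 probe sets of Slc25a39, a carrier of glutathione, 1 rose by 0.63 (adjusted p = 0.018), while its brightest was at 0.02 (adjusted p = 0.934). The called probe sets of Slc25a5 and Slc25a39 are of the x_at kind, which can also bind related transcripts. Further rises were those of Slc29a3, the lysosomal nucleoside transporter ENT3 (0.74, adjusted p = 0.034), and Slc8b1, the mitochondrial sodium-calcium exchanger (0.61, adjusted p = 0.0252). Slc44a2, a choline-transporter-like protein, rose by 0.48 on its x_at probe set (adjusted p = 0.0219), and its other probe set was at −0.06. Of the 12 probe sets of sugar, lactate and pyruvate carriers only that of Slc16a11 passed, and the glucose transporter Slc2a1 was at 0.28 (adjusted p = 0.463).

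**Figure D2:**
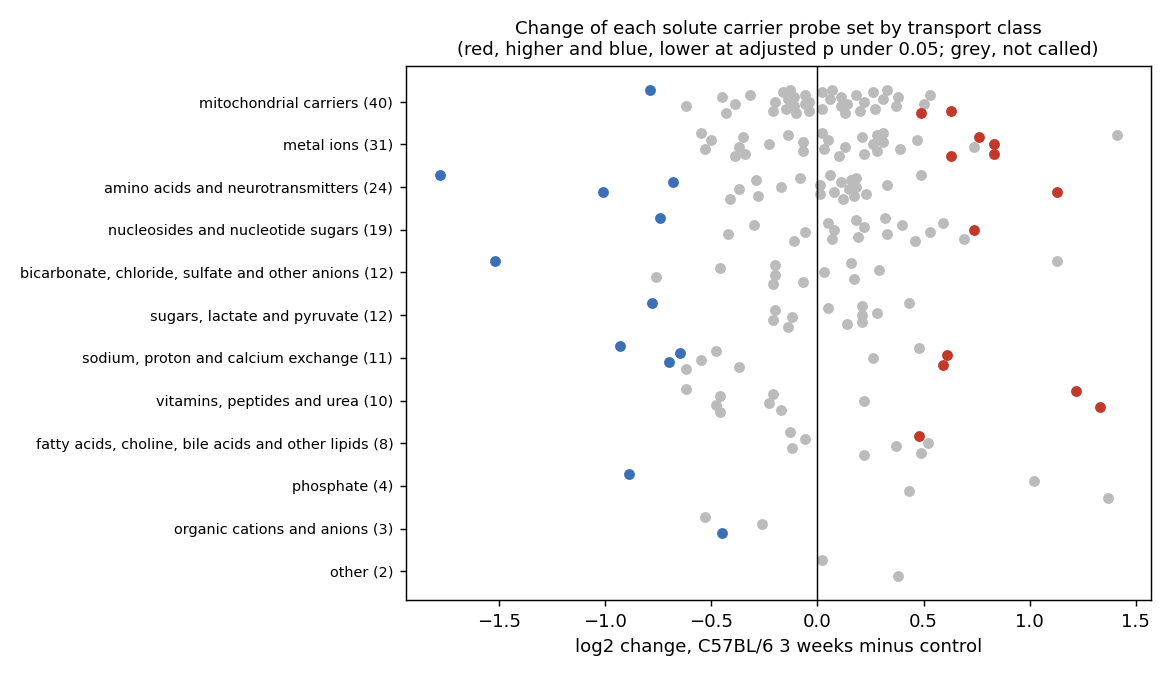
Change of each of the 176 member probe sets in C57BL/6 lung at 3 weeks against control, as a log2 difference, by transport class (number of probe sets in brackets). Red and blue points are the 13 higher and 12 lower at an adjusted p under 0.05; grey points are not called. Metal ion carriers have 4 red points and no blue one among 31, amino acid carriers 3 blue and 1 red among 24. Of all probe sets tested 5.66% were called higher and 5.04% lower.

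Fewer members were called in the other strains at 3 weeks, and the differences between strains are tested further on. In A/J none of the 176 members passed by limma, against 0.842% of all probe sets, and 18 had an unadjusted p under 0.05. In C3H/HeJ 3 passed (1.70% of members, against 1.70% of all probe sets). Median changes were 0.05 and −0.02 over the members. In A/J the smallest p-values were those of Slc26a4 (1.41, SE 0.33, adjusted p = 0.0677) and Slc19a2 (0.62, SE 0.17, adjusted p = 0.127). Without the male array at 80 mg/kg 2 members were called in A/J, and without the female control array 1.

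In C3H/HeJ, Slc11a1 read 7.26 and 7.25 in controls and 8.08 and 7.90 at 3 weeks (0.73, SE 0.15, adjusted p = 0.0173). Macrophage markers rose there in 11 of 15, with a summed intensity of 11358 to 11879 in controls and 14427 to 16356 at 3 weeks. Slc25a20, the carnitine-acylcarnitine carrier that brings fatty acids into mitochondria for oxidation, read 8.09 and 8.04 in controls and 7.04 and 7.12 at 3 weeks. That fall was 1.98-fold (−0.99, SE 0.18, adjusted p = 0.00899), but its other probe set read −0.07 (adjusted p = 0.903). Slc25a51, the mitochondrial NAD carrier, fell by 0.57 on 1 of 2 probe sets (adjusted p = 0.0477). All 4 arrays mattered to these calls: without the male 3 week array, the male control or the female control no member was called, and without the female 3 week array 1 was. With values as deposited no member was called, and with arrays scaled to the same median 3 were, all lower.

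Averaged over the 3 strains, the 3 week change was tested with 8 treated and 6 control arrays. Of the members 32 passed, 18.2%, against 13.7% of all probe sets. Of these 13 were higher, against 6.48% of all probe sets called higher, and 19 were lower, against 7.27% called lower. A single strain can drive such a mean. Slc26a4 headed the rises, at 1.36 (SE 0.21, adjusted p = 3.9e-04), although it passed in no strain by itself. Its mean over the 6 control arrays was 6.51, so that it is a member only through treated arrays where it is high, and its rise is a description. In A/J its controls read 6.57 and 6.51, and the 3 week arrays 7.21, 8.38, 7.81 and 8.37. In C57BL/6 the controls read 6.19 and 6.62 and the 3 week arrays 7.11 and 7.98, and in C3H/HeJ 6.66 and 6.53 against 8.36 and 7.92. Every 3 week array thus lay above every control array of all strains. Strain changes were 1.41, 1.13 and 1.54, and the call held in all 26 alternative settings. Next came Slc19a2 (0.74), Slc15a3 (0.65), Slc11a1 (0.63), Slc29a3 (0.54) and Slc6a8, the creatine transporter (0.45).

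The largest falls of the mean were those of Slc4a5 (−0.88, SE 0.10, adjusted p = 2.9e-05), Slc7a10 (−0.74) and Slc38a5 (−0.73). For Slc38a5 the C3H/HeJ arrays went from 7.97 and 8.12 to 7.42 and 7.11 (−0.78, adjusted p = 0.0803). The A/J arrays went from 7.82 and 7.95 to between 7.19 and 7.79 (−0.39, adjusted p = 0.506). Controls were thus higher than 3 week arrays in each strain. Smaller falls included Slc25a28, the mitochondrial iron carrier mitoferrin 2 (−0.37), Slc23a2, a vitamin C transporter (−0.34), Slc22a5, the carnitine transporter OCTN2 (−0.33), and Slc25a36, a pyrimidine nucleotide carrier (−0.31). All 5 probe sets of Slc9a3r2 that passed were lower, at −0.35 to −0.43. With each of the 14 arrays left out in turn 14 of the 32 calls held every time. Probe sets brought in by treated arrays held 3 of the 32, those of Slc26a4, Slc19a2 and Slc35b4, and among the other members 29 of 165 passed, 17.6%. The count of 32 fell to 17 to 21 on leaving out the A/J male control (19), A/J female control (21), C57BL/6 male 3 week (19), C57BL/6 male control (17), C3H/HeJ male 3 week (21), C3H/HeJ male control (20) or C3H/HeJ female control array (18). With values as deposited 34 passed, 2 higher and 32 lower, and the median of all probe sets moved to −0.27. With arrays scaled to the same median 8 were higher and 22 lower.

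**Figure D3:**
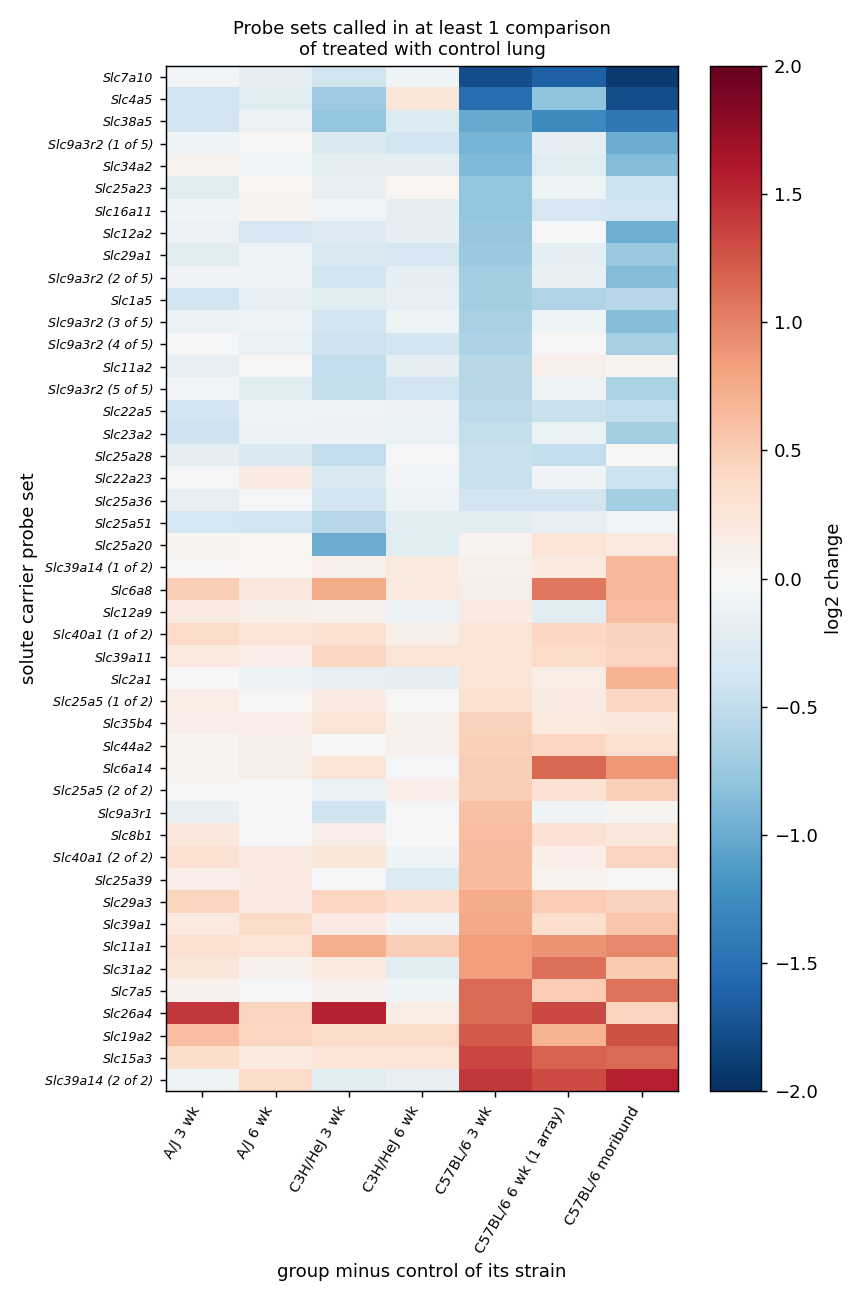
Log2 changes of the 46 member probe sets, for 39 genes, called in at least 1 comparison of treated with control lung, as group mean minus the control mean of the strain; the C57BL/6 6 week column is 1 female array minus the female control. Values run from −1.92 (Slc7a10, moribund) to 1.56 (Slc39a14, moribund). The strongest blue lies in the C57BL/6 columns, and Slc26a4 is red at 3 weeks in all 3 strains.

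The series title asks about strain dependence, and the difference of the 3 week responses was tested as an interaction of strain and treatment. Between C57BL/6 and A/J 2 members passed, 1.14% against 1.07% of all probe sets, both more negative in C57BL/6. For Slc7a10 the difference was −1.72 (SE 0.24, adjusted p = 0.00268): the change was −1.78 in C57BL/6 and −0.06 in A/J (95% interval −0.39 to 0.27). For Slc4a5 the difference was −1.12 (SE 0.25, adjusted p = 0.0388). There the A/J arrays went from 8.52 and 8.33 to between 7.88 and 8.11, a change of −0.39 whose 95% interval was −0.74 to −0.04. The A/J arrays of Slc4a5 thus lay below their controls without overlap, by less than the C57BL/6 arrays did. The Slc4a5 difference lost its call in 14 of 23 alternative settings, with values from −1.28 to −0.82, the fits without any 1 of the 4 C57BL/6 arrays included.

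Between C57BL/6 and C3H/HeJ 1 member passed, 0.568% against 0.152% of all probe sets. It was Slc7a10 again (−1.40, SE 0.26, adjusted p = 0.0352), with C3H/HeJ arrays at 8.63 and 8.64 in controls and 8.21 and 8.31 at 3 weeks. The C3H/HeJ change was −0.37, with a 95% interval of −0.76 to 0.01. Its call was lost in 9 of 21 alternative settings, between −1.54 and −1.18 with an array left out, namely the male 3 week or either control array of C57BL/6, or the female 3 week or either control array of C3H/HeJ. Both differences of Slc7a10 use the same C57BL/6 arrays. Between C3H/HeJ and A/J no member passed, 0% against 0% of all probe sets, and 7 had an unadjusted p under 0.05. The smallest p there was that of Slc25a20 (−1.05, SE 0.24, adjusted p = 0.499).

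For the other genes named so far the difference between strains did not pass. Slc34a2 differed by −0.96 from A/J (SE 0.24, adjusted p = 0.0709), where its arrays read 11.76 to 12.01 in controls and at 3 weeks, and by −0.69 from C3H/HeJ (adjusted p = 0.238). Slc15a3 differed by 0.97 (95% interval 0.36 to 1.57, adjusted p = 0.125) and 1.08 (0.43 to 1.72, adjusted p = 0.132). Slc19a2 differed by 0.60 (adjusted p = 0.305) and 0.84 (adjusted p = 0.181). These intervals are wide and do not show that the strains responded alike.

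In moribund C57BL/6 mice 26 members passed against control, 14.8% of them, against 12.8% of all probe sets. Of these 13 were higher, against 5.86% of all probe sets called higher, and 13 were lower, against 6.90% called lower. They shared their control arrays with the 3 week comparison, so that the values are set side by side only. Slc7a10 was at −1.92 (SE 0.18, adjusted p = 4.3e-06) and had been at −1.78. Slc4a5 read 6.55 and 6.01 in the moribund arrays and was at −1.77 (adjusted p = 1.6e-05), and Slc38a5 read 6.61 and 6.84 and was at −1.43 (adjusted p = 3.6e-04). Both calls held in all 17 alternative settings. Slc34a2 read 11.47 in the male and 10.66 in the female array (−0.87, SE 0.18, adjusted p = 0.00491), and without the female array the change was −0.42 (adjusted p = 0.0727). Among the rises Slc15a3 was at 1.13 and Slc11a1 at 0.96. Slc19a2 was at 1.27 and Slc7a5 at 1.08, both brought into the set by treated arrays. The Slc7a5 call (adjusted p = 0.0472) was lost in 9 of 17 alternative settings, with values from 0.40, without the female moribund array, to 1.76.

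Several members passed in the moribund comparison that had not passed at 3 weeks, but none passed directly between moribund and 3 week lungs. At 3 weeks Slc39a14 was at 1.41, Slc6a14 at 0.49, Slc2a1 at 0.28, Slc12a9 at 0.17 and Slc6a8 at 0.12. The Slc12a2 probe set called was then at −0.76, Slc23a2 at −0.48 and Slc25a36 at −0.39. Slc39a14, the zinc and iron importer ZIP14 that is induced in the acute phase, read 6.99 and 6.27 in controls and 7.34 and 9.04 in the moribund arrays (1.56, SE 0.45, adjusted p = 0.0296). Treated arrays brought this probe set into the members, its control mean being 6.93. Without the female moribund array the change was 0.70 (adjusted p = 0.421), and without the female control it was 1.09 (adjusted p = 0.297). Slc6a14, a carrier of neutral and basic amino acids, was at 0.87 (adjusted p = 0.0269), Slc2a1, the glucose transporter GLUT1, at 0.69 (adjusted p = 0.0438), Slc12a9 at 0.62 (adjusted p = 0.0359) and Slc6a8 at 0.67 (adjusted p = 0.0211). Slc2a1 read 7.44 in the male and 8.17 in the female moribund array, both above the controls at 7.04 and 7.19. The Slc2a1 call was lost in 10 of 17 alternative settings, at 0.30 without the female moribund array, and the Slc12a9 call in 9 of 17, with a lowest value of 0.30. That of Slc6a14 was lost in 6 of 17, with 0.56 without the female control. That of Slc6a8 was lost without the male moribund array or the female control, with values from 0.42 to 0.93. Lower were Slc12a2, the sodium-potassium-chloride cotransporter NKCC1, on 1 of its 3 probe sets (−0.97, adjusted p = 0.0499), Slc23a2 (−0.69, adjusted p = 0.0187) and Slc25a36 (−0.68, adjusted p = 0.00847). The Slc12a2 call was lost without either control or the female moribund array, with values from −1.54 to −0.41, and those of Slc23a2 and Slc25a36 were lost without the same 3 arrays. The brightest Slc12a2 probe set was at −0.17 (adjusted p = 0.621).

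With each of the 4 arrays left out in turn 8 of the 26 calls held every time, those of Slc7a10, Slc4a5, Slc38a5, Slc19a2, Slc15a3, Slc11a1 and 2 probe sets of Slc9a3r2. Probe sets brought in by treated arrays held 4 of the 26, and among the other members 22 of 165 passed, 13.3%. The count of 26 fell to 9 without the female moribund array, to 13 without the male control and to 14 without the female control. With values as deposited it was 9, with 1 higher and 8 lower, and with arrays scaled to the same median 19, with 6 higher and 13 lower. Directly between moribund and 3 week lungs no member passed by limma, against 0.00663% of all probe sets, and 14 had an unadjusted p under 0.05. The 3 named for the smallest p were Slc9a3r1 (−0.60, adjusted p = 0.279), Slc25a25, a calcium-regulated ATP-magnesium and phosphate carrier (0.94, adjusted p = 0.33), and Slc25a42, a coenzyme A carrier (0.57, adjusted p = 0.421). The moribund and 3 week groups overlapped on the array level for Slc7a10, at 6.76 and 6.84 against 6.72 and 7.17.

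At 6 weeks C57BL/6 had 1 array, set against the female control with no replicate check. Of the members 11 differed by more than 2-fold, 6.25%, against 3.54% of all probe sets, 9 higher and 2 lower. The lower ones were Slc7a10, at 7.23 against 8.88 (−1.64), and Slc38a5, at 6.85 against 8.13 (−1.28). Slc4a5 was at 7.04 against 7.85 (−0.81), and Slc34a2 at 11.71 against 11.96. The largest rise was that of 1 Slc20a2 probe set, 1.80 from 5.30 on the control array. Among the other higher ones were Slc26a4 (1.32), Slc39a14 (1.30), Slc15a3 (1.18), Slc6a14 (1.15) and the dimmer probe set of Slc31a2 (1.10). Treated arrays brought the probe sets of Slc20a2, Slc26a4 and Slc39a14 into the members. The level rule thus favoured these rises, which are part of the 6.25%. The summed type 2 cell markers were 31091 on this array, within the range of the controls, the macrophage sum was 18233 and the endothelial sum 7723.

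In A/J and C3H/HeJ no member passed at 6 weeks against control by limma, against 0.192% of all probe sets, and 10 had an unadjusted p under 0.05. Slc11a1 had the smallest p (0.38, SE 0.11, adjusted p = 0.278), with C3H/HeJ arrays at 7.72 and 7.78 above controls at 7.26 and 7.25. None passed at 6 weeks against 3 weeks either, against 0.219% of all probe sets, with 19 at an unadjusted p under 0.05. Slc26a4 was lower at 6 weeks than at 3 weeks by 1.17 in the mean of both strains and just missed the threshold (SE 0.25, adjusted p = 0.0649). It read 6.72 and 7.26 in A/J and 7.01 and 6.49 in C3H/HeJ at 6 weeks, where only the female A/J array overlapped the 3 week arrays. Slc4a5 was higher at 6 weeks by 0.55 (SE 0.13, adjusted p = 0.0855). Its C3H/HeJ arrays read 8.22 and 8.20, above 7.37 and 7.14 at 3 weeks.

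Control lungs of the strains differed in a few members. Between C57BL/6 and A/J 4 passed, 2.27% against 3.17% of all probe sets. Between C57BL/6 and C3H/HeJ 7 passed, 3.98% against 2.50%, and between C3H/HeJ and A/J 1 passed, 0.568% against 1.01%. The first 2 comparisons share the C57BL/6 controls. Slc35a5, of the nucleotide sugar transporter family, read 8.34 and 8.33 in C57BL/6, 7.44 and 7.04 in A/J and 7.22 and 7.16 in C3H/HeJ. It was higher in C57BL/6 by 1.10 (adjusted p = 0.0269) and 1.15 (adjusted p = 0.0254). Slc38a1, the glutamine carrier SNAT1, read 8.31 and 8.17 in C57BL/6 against 7.24 and 7.62 in A/J and 7.51 and 7.37 in C3H/HeJ, higher by 0.81 and 0.80 (adjusted p = 0.0228 and 0.0279). Both genes kept the higher level on every C57BL/6 array, treated ones included.

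Slc25a51 was called on both of its probe sets, in opposite directions. The brighter one read 9.67 and 9.82 in C57BL/6, 9.34 and 9.08 in A/J and 9.02 and 9.12 in C3H/HeJ, higher in C57BL/6 by 0.54 and 0.68. The other read 8.02 and 8.18 against 8.79 and 8.61 and 8.72 and 8.77, lower by 0.60 and 0.65. The 2 probe sets thus give no common order of the strains for this gene. Whether strain sequence differences under the probes affect such values was not tested. Slc1a5 was lower in C3H/HeJ, at 8.25 in 1 control array and below that in the other, than in C57BL/6, at 9.20 and 8.92 (by 0.94, adjusted p = 0.0182), and than in A/J, at 9.12 and 9.10 (−0.99, SE 0.20, adjusted p = 0.019). Lower in C57BL/6 than in C3H/HeJ were Slc31a2 on its dimmer probe set (−1.06, adjusted p = 0.0194) and Slc25a29, a mitochondrial carrier of basic amino acids (−0.77, adjusted p = 0.0272). The brighter Slc31a2 probe set was not called, at 7.62 on the female C57BL/6 control and 7.63 in the mean of the C3H/HeJ controls. Of the 3 genes with several probe sets and a call in this comparison, 2 had probe sets of opposite sign, Slc25a51 among them. With 1 control array left out the counts were 0 or 1 in the comparisons with A/J and 0 to 3 between C57BL/6 and C3H/HeJ. With values as deposited they were 1, 0 and 0.

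**Figure D4:**
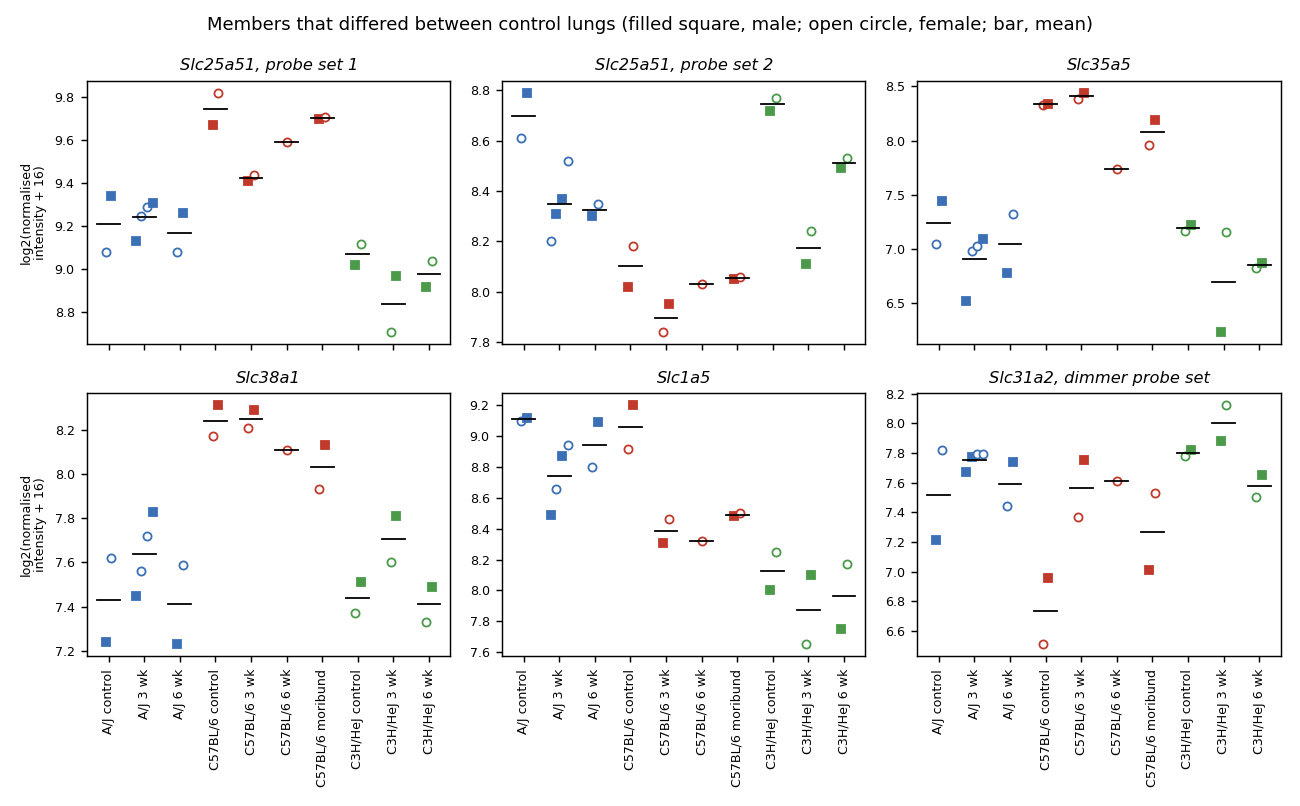
Levels per array of probe sets that differed between control lungs, as log2 of the normalised intensity plus 16, by strain and stage. That of Slc25a29, which also differed, is not shown. Filled squares are male pools, open circles female pools and bars group means. Slc35a5 lies at 7.74 or above on all C57BL/6 arrays and at 7.44 or below on all others, and both probe sets of Slc25a51 set C57BL/6 apart in opposite directions.

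Probe sets of a gene were not always called together. Of the 120 genes 39 had several member probe sets and 81 had 1. In C57BL/6 at 3 weeks 7 of the 39 had at least 1 called probe set, and none had all of them called. In the mean of the strains 9 had at least 1 and 1 had all, and in moribund lungs the counts were 8 and 1. In each of these comparisons 1 gene with a call also had a probe set of the opposite sign, and no gene was called both ways. Slc25a5, with 7 probe sets, ranged from 0.02 to 0.53 in C57BL/6 at 3 weeks, and only that at 0.49 passed. When members were chosen instead by their mean over the 6 control arrays, 171 qualified, 165 of them under both rules. Of the 25 calls in C57BL/6 at 3 weeks 23 were then still among the members, and those of Slc19a2 and Slc7a5, the second and the third largest rises called, were not.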

How the data were processed

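Per the labels, total RNA was taken from right lungs by Trizol, and pools of several mice were run on Affymetrix arrays. The authors' deposited table held intensity values on a linear scale, 1 column for each of the 21 arrays, and the sources used here do not give the software that summarised the probes. After 64 control probe sets were left out, values were quantile normalised between arrays, turned into log2 of the value plus 16, and the dimmest 33.3% by mean were left out. Of 20380 probe sets with 1 symbol, 20359 matched the gene table. In R 4.3.3 with limma 3.58.1, all 21 arrays were fitted by a model with terms for each strain and stage and for sex (lmFit, contrasts.fit, eBayes with trend; 10 residual degrees of freedom, 16.4 after shrinkage). Tests were two-sided with Benjamini-Hochberg adjustment over all 15084 probe sets. The number of arrays, mostly 2 a group, limits the precision, and the median SE was 0.19 for a strain's change in C57BL/6 at 3 weeks. The procedure was tested on simulated data.

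The members, transport classes, marker lists and naming rule were chosen with earlier results of these data known. Named were, of the genes called in each comparison, up to 8 that rose most and 8 that fell most (the 3 with the smallest p where none was), each by its brightest probe set, 17 of 24 listed genes that were members, and the 2 members of each class with the smallest p in the mean of the strains. Other probe sets and genes that complete a count were named after their values were seen. Alternatives were deposited or median scaling, offsets of 1 and 64, other dim filters, no sex term, array weights, 1 probe set a gene, an adjusted p under 0.10, the arrays of the compared strains only, other member thresholds, symbols without update, and leaving out each array. Added after the data were seen were fits without 3 arrays that stand apart by Xist or the Gapdh ratio, array brightness as a covariate, and members by the control mean.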

Additional observations from a re-analysis of the deposited data

Results flagged for a closer look

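Slc7a10 and Slc4a5 were picked out because the response at 3 weeks differed between strains by a test of the difference itself. For Slc7a10 the response of C57BL/6 differed by −1.72 from that of A/J (SE 0.24, limma adjusted p = 0.00268) and by −1.40 from that of C3H/HeJ (SE 0.26, adjusted p = 0.0352). The difference from A/J was lost as a call in 1 of 23 alternative settings, that of values as deposited (−1.52, adjusted p = 0.178). That from C3H/HeJ was lost in 9 of 21. For Slc4a5 the difference from A/J was −1.12 (SE 0.25, adjusted p = 0.0388), and its call was lost in 14 of 23. In the A/J group of 4 arrays at 3 weeks, none of 50 named probe sets had an array far from the other arrays by Dixon's criterion (0.829), where chance gives about 1 in 20. The groups of 2 arrays were not tested this way.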

How the results depend on the processing

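No paired analysis was possible because the titles number no replicates and different mice were pooled for every array. Counts of called members are given by setting, with main values in brackets where repeated. For the alternative settings, here and above, the share of all probe sets called is not given. A shift of the members alone thus cannot be told from a shift of all probe sets. With each array left out in turn they ran from 8 to 17 (main 25) in C57BL/6 at 3 weeks, 0 to 2 (0) in A/J, 0 to 1 (3) in C3H/HeJ, 17 to 32 (32) in the mean, 9 to 34 (26) in moribund mice, 0 to 2 (0) at 6 against 3 weeks, 0 to 1 (4), 0 to 3 (7) and 0 to 0 (1) between the controls of C57BL/6 and A/J, C57BL/6 and C3H/HeJ, and C3H/HeJ and A/J, and 1 to 2 (2) and 0 to 3 (1) for the response differences of C57BL/6 from A/J and C3H/HeJ. Values as deposited gave 6 in C57BL/6 at 3 weeks, 0 in C3H/HeJ, 9 in moribund mice, 1, 0 and 0 between controls and 0 and 0 for the response differences. They also turned the sign of Slc25a39 in A/J to −0.04 (main 0.29, not called), and moved the median of all probe sets by −0.34 in A/J to −0.18 in C57BL/6 at 3 weeks. Scaling to 1 median gave 1 and 0 for the response differences. Array weights gave 43 in C57BL/6 at 3 weeks, 2 in A/J, 14 in moribund mice, 16 and 17 for C57BL/6 controls against A/J and C3H/HeJ, and 6 for the response difference from A/J. The arrays of the compared strains only gave 8 in C57BL/6 at 3 weeks, 1 in C3H/HeJ, 8 in moribund mice, 1 for C57BL/6 against C3H/HeJ controls and 0 for that response difference, with fewer arrays to estimate the spread. An adjusted p under 0.10 gave 1 in A/J, 8 in C3H/HeJ, 2 at 6 against 3 weeks, 10 and 12 for the C57BL/6 controls and 4 and 3 for the response differences. With 1 probe set a gene there was 1 call in A/J and 1 at 6 against 3 weeks. With the dimmest 50% left out there were 5 in C3H/HeJ. For the response difference from A/J an offset of 64 gave 1 and no dim filter 1. The offset of 64 also left 4 members past 2-fold on the C57BL/6 6 week array (main 11). Leaving out the 3 arrays that stand apart, a setting chosen after seeing the data, gave 2 in A/J, 0 in C3H/HeJ, 20 in the mean, and 1 and 2 for the response differences. Array brightness as a covariate, also added, gave 18 in the mean and 16 in moribund mice. The cause of these shifts was not tested. Where all 3 strains were compared, the setting with only the compared strains is the main one and was not run again. Arrays give no read depth, and dim members such as Slc20a2 (5.30 on the C57BL/6 female control) sit where the offset compresses differences.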
